A study of Arabidopsis thaliana with 4 samples.

Results

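The genes described here are 10 loci of the R2R3-MYB family of Arabidopsis thaliana transcription factors, taken by name: MYB2, MYB62, MYB108, MYB112 and MYB116 of subgroup 20, MYB44, MYB70, MYB73 and MYB77 of subgroup 22, and MYB15 of subgroup 2. They were chosen with their leaf and protoplast counts in these data known, so those counts are given as a description and without a test. The count table has 24904 loci and holds a row for 9 of the 10. MYB116 (AT1G25340) has no row and was not analysed here. Of the 9, 8 passed the filter on low counts and MYB62 did not, and MYB108 passed it through its protoplast counts only.

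All libraries came from wild-type Col-0 plants at the age of 6 weeks, kept under a day of 8 h light with 16 h dark. The leaf group (2 libraries) is RNA from leaves that were not digested. The protoplast group (2 libraries) is RNA from wall-less leaf cells, which the enzymes cellulase (1%) and macerozyme (0.3%) released within 2 h from peeled and cut leaves held in 0.6 M mannitol. The released cells were filtered and washed. Peeling, cutting, digestion, mannitol, washing and the loss of cell types that are not released all separate the groups at once and cannot be told apart. The labels call the libraries biological replicates without naming plants or days, so the spread behind an SD or p-value here may be technical.

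R2R3-MYB factors bind DNA through a pair of imperfect helix-turn-helix repeats at the amino end, while the rest of the protein differs between subgroups. Subgroup 20 is known for responses to wounding, drought, abscisic acid, jasmonate and phosphate shortage. Subgroup 22 is known for rapid stress and hormone responses, since its members bind abscisic acid receptors, an auxin response factor and MAP kinases. MYB15 is known as an activator of lignin synthesis in defence and as a repressor of cold-response regulators.

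In the RefSeq annotation of TAIR10.1, the 4 genes of subgroup 22 each had 1 coding exon, whereas MYB2, MYB62, MYB108, MYB112 and MYB15 had 3 and MYB116 had 4. The coding sequences within subgroup 22 were 53.7% to 66.8% identical over the alignment, with MYB70 and MYB73 the closest pair and MYB44 at 63.5% with MYB77. Within subgroup 20 the identity ran from 43.2% to 56.8%, with MYB62 and MYB116 closest, and between subgroups from 33.6% to 46.7%. The longest run of identical bases that any 2 of the 10 coding sequences share was 30 bases, far below the read length of 150. One such run joins MYB62 with MYB116 and the other joins MYB70 with MYB73, and the latter is shown because it is the longest stretch that could confuse reads of counted members.
MYB70 and MYB73 shared run: ggtggtaatggagggtatgatggtaattta
It lies at coding bases 388 to 417 of MYB70 and 370 to 399 of MYB73.

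The upstream stretches of 4 members that were higher in protoplasts are shown. MYB2, MYB44 and MYB77 hold a match to a searched motif there, while MYB108, which had the widest gap between the groups, holds none. Each is the 250 bases before the annotated gene start (RefSeq, TAIR10.1), written 5′ to 3′ on the gene's own strand, with matches to any searched motif in capitals. The annotated start of MYB108 lies 905 bases before its first codon, against 299 for MYB2, 87 for MYB44 and 275 for MYB77. The stretch of MYB108 is thus further from its first codon than the others. Most bases between the start and the first codon of MYB108 were not searched. MYB2 lies on the plus strand and its stretch is chr2:19375735-19375984. MYB108, on the plus strand, has chr3:2003143-2003392, and MYB44, on the plus strand, has chr5:26853772-26854021. MYB77 lies on the minus strand and its stretch is chr3:18559327-18559576.
MYB2: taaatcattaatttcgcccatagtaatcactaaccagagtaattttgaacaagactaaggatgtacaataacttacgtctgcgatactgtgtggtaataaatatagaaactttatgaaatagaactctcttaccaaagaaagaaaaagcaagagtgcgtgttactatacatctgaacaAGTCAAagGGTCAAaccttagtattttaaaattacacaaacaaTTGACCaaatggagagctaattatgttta
MYB108: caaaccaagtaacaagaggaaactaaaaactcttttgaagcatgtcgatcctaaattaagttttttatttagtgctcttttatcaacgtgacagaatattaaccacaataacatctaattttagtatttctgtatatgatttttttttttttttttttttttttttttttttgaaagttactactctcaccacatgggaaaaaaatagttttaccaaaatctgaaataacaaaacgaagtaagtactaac
MYB44: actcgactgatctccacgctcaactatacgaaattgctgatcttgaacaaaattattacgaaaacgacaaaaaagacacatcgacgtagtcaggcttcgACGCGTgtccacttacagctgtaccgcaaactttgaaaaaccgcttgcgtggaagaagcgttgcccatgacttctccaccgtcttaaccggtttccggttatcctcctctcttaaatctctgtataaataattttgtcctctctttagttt
MYB77: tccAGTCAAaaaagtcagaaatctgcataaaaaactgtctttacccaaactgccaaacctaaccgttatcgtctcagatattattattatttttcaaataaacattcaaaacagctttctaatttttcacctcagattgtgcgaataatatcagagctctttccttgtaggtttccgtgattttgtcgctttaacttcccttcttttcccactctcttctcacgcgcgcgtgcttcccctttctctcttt

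The capitals in MYB2 are 3 W boxes, the site of WRKY factors (TTGACC or TTGACT, searched on both strands), which begin 72, 64 and 29 bases before the start. MYB77 has a W box that begins 247 bases before its start, and MYB44 has a CGCG box (ACGCGT or ACGCGG), the site of calmodulin-binding CAMTA factors, that begins 151 bases before its start. The stretch of MYB108 has no capitals. Among the bases searched, the only match of MYB108 lay after the start. There CGCGTT, the rapid stress response element, covers bases 27 to 32 of the transcribed region. MYB15 likewise had a W box after its start, at bases 16 to 21. CGCGTT can overlap a CGCG box where ACGCGTT occurs.

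Over the window of 250 bases before to 50 after the start, 3 of the 10 members held a W box, against 32.4% of 27443 promoters of nuclear protein-coding genes. The rapid stress response element was in 1 member and 3.4% of promoters, the CGCG box in 1 and 4.3%, and the P1BS site of phosphate starvation factors (GNATATNC) in 1, MYB70, and 6.25%. Of the forms of the MYB core only CCGTTG and CTGTTG were searched. A match to these was in MYB62 alone among the members and in 14.4% of promoters. None of the 10 held the G box CACGTG (7.68% of promoters) or the auxin response element TGTCTC (14.2%). A match is letters in a window and not a measured site.

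**Figure D1:**
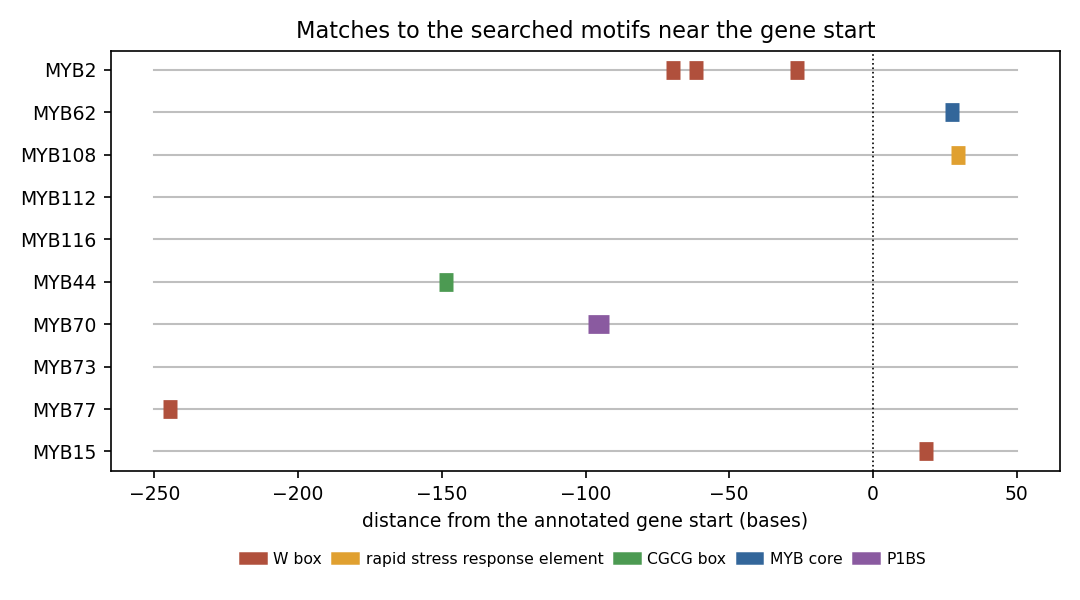
Matches to the searched motifs along the window from 250 bases before to 50 bases after the annotated gene start of each of the 10 genes (x axis, distance in bases; coloured blocks, matches). MYB2 holds 3 W boxes within 72 bases of its start, while MYB112, MYB116 and MYB73 hold no match.

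The libraries held 39958035 to 48503141 counts. Levels are given as CPM, counts brought to a common library total, with library sizes scaled by TMM factors, which assume that most genes do not differ. With library size only, the log2 fold changes of all genes shifted downward by 0.80 (median), and with upper-quartile factors by 0.33. Markers of cell types other than mesophyll were lower in the protoplast libraries. Over all genes tested, 39.8% were called higher and 40.7% lower in protoplasts. The 8 epidermis markers summed to 1034 CPM in each leaf library and to 9.56 and 9.69 CPM in protoplasts, and of 7 tested 7 fell, with CER4 and PDF1 at 0 counts in protoplasts. The 7 guard cell markers summed to 46.4 and 47.8 CPM in leaf and to 2.81 and 2.64 CPM in protoplasts, all 7 fell, and ALMT12 was at 0. The 9 phloem markers went from 962 and 1007 CPM to 31.5 and 30.7 CPM and the 7 xylem markers from 41.7 and 47.3 CPM to 2.08 and 2.64 CPM, with all members lower by the test. The 8 markers of mesophyll, the photosynthetic tissue inside the leaf, summed to 39473 and 40051 CPM in leaf and to 57971 and 58093 CPM in protoplasts, and 7 of them rose with TMM factors. By library size only, 6 of these 7 had a negative fold change and CA1 alone stayed positive. The part of these cell type differences in the results that follow was not tested. In bulk RNA, fewer cells of a type and less RNA per cell cannot be told apart.

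Of the 8 members that passed the filter, 7 had both protoplast libraries above both leaf libraries and 1 had both below. Over all 20200 genes tested, 43.9% were separated upward and 46.4% downward, and because the members were chosen on this contrast nothing is read from their count. The direction of MYB70 turned with library size only, as given with its values.

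MYB108 stood apart within subgroup 20. MYB108 (AT3G06490, also called BOS1) is known from work on cell death around wounds, on Botrytis infection and on jasmonate-dependent stamen maturation. It had 1 and 2 counts in the leaf libraries and 16667 and 12519 counts in the protoplast libraries. In CPM these are 0.0179 and 0.0347 against 450 and 418. Both leaf libraries were thus next to empty for this gene and both protoplast libraries were high, with no overlap. The ratio of the groups was 16484, with an exact 95% counting interval of 5640 to 79935, which covers counting error only. Since leaf held 3 counts in all, the size of this ratio rests on those few reads.

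MYB2 (AT2G47190), which acts with MYC2 on drought and abscisic acid genes, had 31 and 37 leaf counts and 158 and 95 protoplast counts. Its CPM were 0.556 and 0.641 in leaf and 4.27 and 3.18 in protoplasts, and the groups did not overlap. The fitted log2 fold change was 2.64 ± 0.22 (SE, n = 2 per group). Here the protoplast libraries differed more from each other than the leaf libraries did, with SDs of 0.772 and 0.0601 CPM.

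MYB112 (AT1G48000), a promoter of anthocyanin formation under salt and high light, went the other way. It had 75 and 107 leaf counts and 31 and 26 protoplast counts, or 1.35 and 1.85 CPM against 0.837 and 0.869 CPM. Its log2 fold change was -0.91 ± 0.25 (SE, n = 2 per group), and it was the only counted member with both protoplast libraries below both leaf libraries. MYB62 (AT1G68320), which is linked to phosphate starvation and gibberellin, had 8 and 15 leaf counts and 6 and 7 protoplast counts. Its CPM of 0.144 and 0.260 in leaf overlapped those of 0.162 and 0.234 in protoplasts, and at this depth no difference was detectable.

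The members of subgroup 22 were all easily counted in leaf, and their protoplast levels differed from gene to gene. MYB44 (AT5G67300), a regulator of abscisic acid signalling and stomatal closure, had 13003 and 13444 leaf counts and 23763 and 20015 protoplast counts. Its level was 233.3 and 233.0 CPM in leaf and 642 and 669 CPM in protoplasts, so that the leaf libraries nearly coincided and lay well below both protoplast libraries. The log2 fold change of MYB44 was 1.49 ± 0.05 (SE, n = 2 per group), a 2.81-fold difference, and 0.68 with library size only. The annotation places CYP81G1 and a pair of non-coding RNAs across MYB44. CYP81G1 held 7, 5, 37 and 45 counts in leaf 1, leaf 2, protoplast 1 and protoplast 2, and AT5G09855 at most 11, so both lay far below MYB44.

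MYB77 (AT3G50060), which works with the auxin response factor ARF7 in lateral root growth, had 725 and 676 leaf counts and 5307 and 4624 protoplast counts. These are 13.0 and 11.7 CPM against 143 and 155 CPM, with a log2 fold change of 3.59 ± 0.07 (SE, n = 2 per group), a 12.0-fold difference. Of the 4 genes of subgroup 22 it had the widest gap between groups. MYB73 (AT4G37260), known from salt and auxin responses, had 1266 and 1145 leaf counts and 4682 and 4016 protoplast counts. Its 22.7 and 19.8 CPM in leaf stood against 126 and 134 CPM in protoplasts, and its log2 fold change was 2.61 ± 0.07 (SE, n = 2 per group). HMA1, a metal transporter gene on the opposite strand, overlaps MYB73 and had 3156 and 3531 leaf counts and 3303 and 2580 protoplast counts. The strand setting of the counting was not found in the labels or files, so some reads of MYB73 and HMA1 may have been counted for the other gene.

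MYB70 (AT2G23290), which acts in root growth, had 464 and 483 leaf counts and 356 and 355 protoplast counts. In CPM it had 8.33 and 8.37 in leaf and 9.61 and 11.9 in protoplasts, and the log2 fold change was 0.36 ± 0.11 (SE, n = 2 per group). This small difference depended on the scaling, with 0.03 under upper-quartile factors and -0.45 by library size only. MYB70 and MYB73, whose coding sequences are the closest of all 45 pairs, thus differed in how far their levels stood apart between the groups.

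MYB15 (AT3G23250), the member of subgroup 2, had 58 and 70 leaf counts and 2779 and 2142 protoplast counts. In CPM these are 1.04 and 1.21 against 75.1 and 71.6, with no overlap and little spread within either group. Its log2 fold change of 6.02 ± 0.09 (SE, n = 2 per group), a 64.9-fold difference, was second to that of MYB108 among the members. Its relatives in subgroup 2 and another gene of subgroup 20 had few counts. MYB13 had 60 and 83 leaf counts and 27 and 29 protoplast counts and did not pass the test (log2 fold change -0.58 ± 0.27, adjusted p = 0.0612), though it did under upper-quartile scaling (adjusted p = 0.00649), by library size only (adjusted p = 9.36e-05) and without leaf replicate 1 (adjusted p = 0.0251). MYB14 had 3 and 2 counts in leaf and 0 in both protoplast libraries, and MYB78, of subgroup 20, had 0 in both leaf libraries and 4 and 1 in protoplasts, so that neither was tested.

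**Figure D2:**
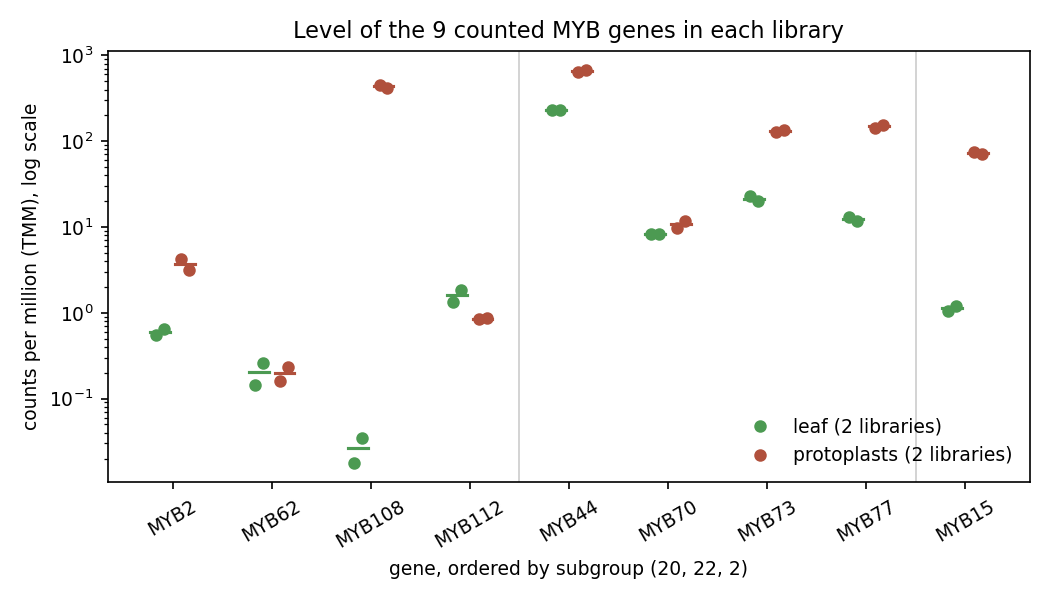
CPM with TMM scaling (y axis, log scale) of the 9 counted genes in the 2 leaf and the 2 protoplast libraries (points) with group means (bars), ordered by subgroup. MYB108 goes from 1 and 2 leaf counts to 450 and 418 CPM, MYB62 overlaps between the groups, and the direction of MYB70 turns with library size only.

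The authors' deposited table gives log2 fold changes for the same genes, with a scaling that the sources used here do not state. In the authors' deposited table MYB77 had 3.61 ± 0.09 (SE), MYB44 1.51 ± 0.06 and MYB15 6.04 ± 0.16. MYB62 had -0.02 ± 1.05 in the authors' deposited table, and MYB70 had 0.38 ± 0.17. The same order of MYB15, MYB77, MYB2, MYB73, MYB44 and MYB70 appeared in the authors' deposited table as in the fit made here. Both rest on the same libraries, so the shared order is not separate evidence. MYB2 and MYB73 lay within the SE of MYB2 in the fit made here (2.64 ± 0.22 and 2.61 ± 0.07). Their order turned without protoplast replicate 1 (2.39 and 2.64).

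Levels of different genes were compared per kilobase of coding length. In leaf the order was MYB44, MYB73, MYB77, MYB70, MYB112, MYB15, MYB2, MYB62 and MYB108, from 254 CPM per kilobase for MYB44 to 0.0185 and 0.0357 for the libraries of MYB108. The leaf libraries of no 2 neighbours in this order overlapped. In protoplasts the order was MYB44, MYB108, MYB77, MYB73, MYB15, MYB70, MYB2, MYB112 and MYB62, again without overlap of neighbours. MYB44 led with 699 and 729 CPM per kilobase and MYB108 followed with 463 and 430. MYB108 was last in leaf and next to MYB44 in protoplasts, and MYB77 and MYB73 exchanged places by this measure. Coding length leaves out the rest of each gene. From the start to the first codon MYB108 has 905 bases, MYB77 275, MYB73 112 and MYB44 87. The order and separation of close neighbours, MYB77 and MYB73 among them, may thus depend on the length used.

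Ratios of members within a library need no scaling between libraries and show the same rearrangement. MYB77 per kilobase was 0.0565 and 0.0509 times MYB44 in the leaf libraries and 0.226 and 0.234 times in the protoplast libraries. For MYB73 against MYB70 the ratio was 2.63 and 2.29 in leaf and 12.7 and 10.9 in protoplasts. MYB108 against MYB44 went from 7.26e-05 and 0.000141 in leaf to 0.662 and 0.591 in protoplasts. In all 3 ratios the leaf and protoplast libraries were well apart, and the direction cannot turn with the scaling.

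Among 104 MYB-numbered genes with a row and a coding length, MYB44 had the highest level per kilobase in leaf and the 3rd highest in protoplasts. MYB108 moved from 81st to 4th, MYB15 from 38th to 7th and MYB77 from 13th to 5th. The 9 members held 37.3% and 36.3% of the counts of all MYB-numbered genes in the leaf libraries and 37.5% and 39.5% in the protoplast libraries. Of the counts of all MYB-numbered genes, MYB44 held 31.0% and 30.5% in leaf and 16.6% and 18.0% in protoplasts. MYB108 held 0.00239% and 0.00454% of them in leaf and 11.6% and 11.3% in protoplasts. The summed level of all MYB-numbered genes was 752 and 763 CPM in leaf and 3866 and 3706 CPM in protoplasts.

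The other MYB-numbered genes were tested, since they are not members. Of 115 such loci 95 had a row and 60 passed the filter, of which 16 rose, 36 fell and 8 were not called. That is 26.7% higher and 60.0% lower, against 39.8% and 40.7% of all genes tested, with a median log2 fold change of -1.34 against -0.04 over all genes tested. Without a filter all 95 loci with a row were tested, and 25 of the 95 were called higher and 40 lower. Over all 24904 genes 9077 were called higher and 8706 lower in that fit. The genes named next are the 5 at each end among those with at least 5 CPM in one group. MYB102, known from wounding and osmotic stress, rose from 4.95 and 5.15 CPM to 1269 and 1197 CPM, a log2 fold change of 7.93 ± 0.07 (adjusted p = 3.04e-16). MYB74, its relative in salt stress, rose from 7.11 and 8.15 CPM to 959 and 854 CPM (log2 fold change 6.89 ± 0.09, adjusted p = 1.66e-15). Both stood above MYB44 in CPM in each protoplast library and below it in each leaf library. MYB5, a regulator of seed coat and trichome development, MYB7, a repressor of phenylpropanoid genes, and MYB120, known from pollen tubes, rose by 4.44, 4.11 and 4.02 in log2 units, with adjusted p-values of at most 3.19e-09.

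Above that level, the 5 genes that fell furthest are known from epidermis, guard cells and glucosinolate synthesis. MYB94 and MYB96, activators of cuticular wax synthesis, went from 637 and 788 and from 3179 and 3437 counts in leaf to 1 and 2 and to 46 and 34 in protoplasts. For MYB94, with 3 protoplast counts, the ratio was 280.3-fold lower with an exact 95% counting interval of 95.7 to 1361. Without protoplast replicate 1 the ratio for MYB94 was 188-fold, and without protoplast replicate 2 it was 465-fold. MYB96 had a log2 fold change of -5.61 ± 0.10 (adjusted p = 2.71e-14). MYB16, a regulator of cuticle and epidermal cell shape, had a log2 fold change of -7.42 ± 0.17 (adjusted p = 4.89e-13). MYB60, a guard cell factor, had 300 and 281 leaf counts and 2 and 1 protoplast counts, and MYB29, a regulator of aliphatic glucosinolates, had a log2 fold change of -6.03 ± 0.13 (adjusted p = 3.02e-13). These falls stood beside those of the epidermis and guard cell markers given above, and the part of those cells in them was not tested. MYB60 is itself among those guard cell markers, so its fall is already contained in theirs.

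**Figure D3:**
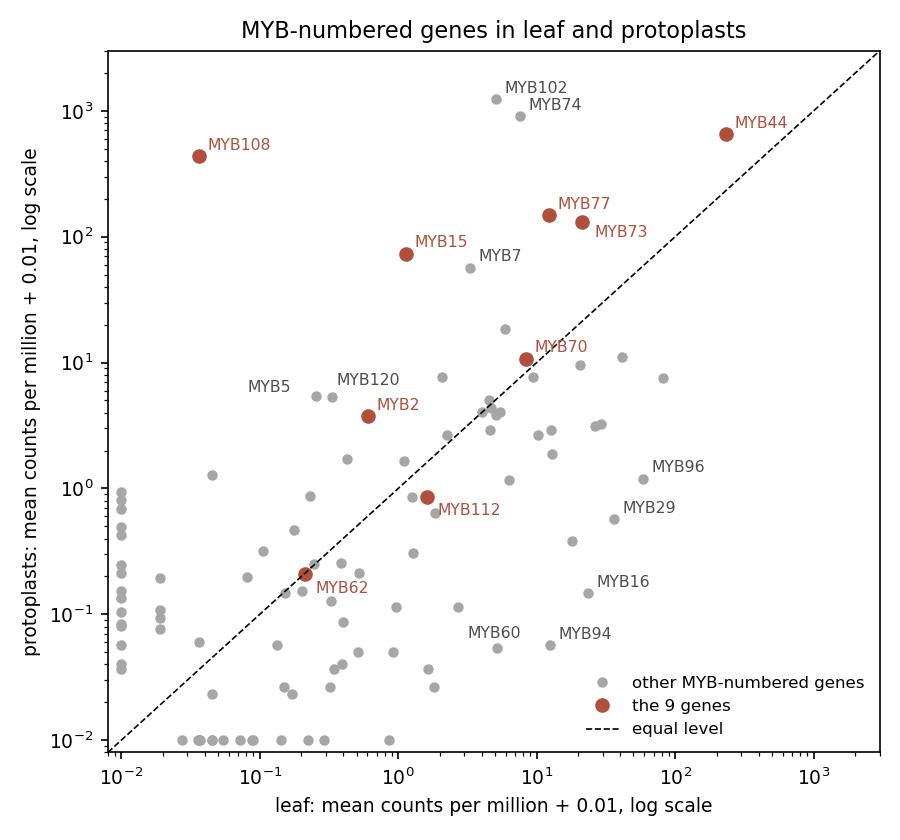
Mean CPM plus 0.01 in leaf (x axis) and protoplasts (y axis), both on log scales, for all MYB-numbered genes with a row, with the 9 members in red and the other genes in grey; the dashed line marks equal levels. MYB108, MYB15, MYB77, MYB73 and MYB44 lie above the line, MYB70 close to it with a direction that turns with library size only, and MYB94, MYB16, MYB60, MYB29 and MYB96 far below it.

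Genes tied to the members by published work were taken as lists, of which 75 genes were listed, 70 had a row and 63 passed the filter. The lists were fixed with earlier results of these data known, so their shares are not independent of those results. Of the 63, 32 rose, 21 fell and 10 were not called, or 50.8% higher and 33.3% lower, against 39.8% and 40.7% of all genes tested, with a median log2 fold change of 0.15. With upper-quartile factors 33 fell, and with library size only 20 rose and 41 fell. The shares of 39.8% higher and 40.7% lower with TMM factors are also the background for each list below. For the other scalings the background is different. Of all 20200 genes tested, 6183 rose and 11047 fell with upper-quartile factors, and 4326 rose and 14057 fell with library size only.

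The protein partners of the members had 14 tested genes, of which 10 rose, 1 fell and 3 were not called, with a median log2 fold change of 0.38. Of all genes tested, 39.8% rose and 40.7% fell. With library size only, 4 partners rose and 9 fell, beside 4326 and 14057 of all 20200 genes tested. TPR3, a corepressor related to TOPLESS, rose from 6.19 and 6.67 CPM to 408 and 384 CPM (log2 fold change 5.94 ± 0.07, adjusted p = 8.87e-16). Named after their values were seen, MPK3, a MAP kinase that phosphorylates MYB44, rose by 2.53 ± 0.05, BOI, a ubiquitin ligase that acts on MYB108, by 3.16 ± 0.09 and MYC2, the partner of MYB2, by 2.75 ± 0.05 (log2 units). Likewise named after their values were seen, PYL8, a receptor of abscisic acid, and the auxin response factor ARF7, partners of MYB77, had log2 fold changes of 0.09 ± 0.06 and -0.13 ± 0.09 and were not called (adjusted p = 0.152 and 0.185). PYL8 turned to -0.24 by upper-quartile scaling and to -0.71 by library size only. ARF7 was called lower under both of these scalings and without leaf replicate 1, and had 0.01 without leaf replicate 2. ICE1, a cold regulator that binds MYB15, fell by 0.20 ± 0.06 (adjusted p = 0.0128), a call that DESeq2 did not make (adjusted p = 0.111) and that ended when protoplast replicate 1 was left out (adjusted p = 0.101).

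Among 8 tested genes linked to MYB44, which are clade A phosphatases of abscisic acid signalling and WRKY70, 5 rose and 3 fell with a median log2 fold change of 0.60. HAI1 rose from 74.2 and 68.9 CPM to 244.7 and 284.7 CPM (log2 fold change 1.89 ± 0.07, adjusted p = 6.72e-11), while HAB1 went from 260.5 and 252.7 CPM to 119 and 121 CPM (log2 fold change -1.10 ± 0.05, adjusted p = 3.78e-10). With library size only, 3 rose and 5 fell. The list of auxin response genes for MYB77 had 9 tested members, of which 3 rose, 5 fell and 1 was not called, with a median of -1.18. GH3.3, an auxin-conjugating enzyme, rose from 23 and 32 counts to 6325 and 4403 (log2 fold change 8.35 ± 0.12, adjusted p = 6.83e-15). IAA14, an auxin response repressor, had 421 and 373 leaf counts and 3 and 0 protoplast counts, a 156-fold lower ratio with a counting interval of 53.3 to 759. Without protoplast replicate 2 the ratio for IAA14 was 86.4-fold, and without protoplast replicate 1, which held all 3 counts, it was at least 69.9-fold. Both lists thus held genes that moved in opposite directions.

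Of 16 lignin and phenylpropanoid genes linked to MYB15, 7 rose, 5 fell and 4 were not called, with a median log2 fold change of 0.04. CAD5, a cinnamyl alcohol dehydrogenase, rose from 32.1 and 31.1 CPM to 346 and 368 CPM, 11.3-fold (adjusted p = 1.5e-14). PAL4, a phenylalanine ammonia lyase, had 256 and 273 leaf counts and 4 and 3 protoplast counts (log2 fold change -5.44 ± 0.28, adjusted p = 1.55e-09). With upper-quartile factors 9 of the 16 fell, and with library size only 4 rose and 11 fell. The cold regulators CBF1, CBF2 and CBF3, which MYB15 is known to repress, all rose, by 4.35 ± 0.08, 3.45 ± 0.06 and 2.39 ± 0.12 in log2 units. Their counts may be shared in part, since they are similar neighbours in the genome.

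The genes linked to MYB2 did not rise. RD22, a dehydration-responsive gene, went from 57002 and 58289 counts to 259 and 210 (log2 fold change -7.18 ± 0.07, adjusted p = 3.04e-16) and ADH1, an alcohol dehydrogenase, from 255 and 250 to 44 and 31 (log2 fold change -1.99 ± 0.17, adjusted p = 3.05e-07). P5CS1, an enzyme of proline synthesis, had 758 and 748 CPM in leaf and 761 and 753 CPM in protoplasts and was not called (log2 fold change 0.01 ± 0.05, adjusted p = 0.879), but it was called lower at -0.32 under upper-quartile scaling and at -0.80 by library size only. For MYB112, the phenylpropanoid repressor MYB7 rose, as given above, and its relative MYB32 fell by 0.64 ± 0.17 on the log2 scale (adjusted p = 0.00413).

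Of 5 tested phosphate starvation genes on the list for MYB62, 4 fell and 1 rose, with a median of -2.05. PHT1;4, a phosphate transporter, had 40 and 51 leaf counts and 1 and 0 protoplast counts, a 53.7-fold lower ratio with a counting interval of 9.40 to 2144. Without protoplast replicate 2 the ratio for PHT1;4 was 29.7-fold, and without protoplast replicate 1, which held the 1 count, it was at least 7.99-fold. SQD2, of sulfolipid synthesis, rose by 0.52 ± 0.06 on the log2 scale (adjusted p = 1.94e-06), which turned to -0.28 with library size only. The stamen factors MYB21 and MYB57, which share jasmonate control with MYB108, had 0 counts in both leaf libraries, 15 and 13 and 30 and 24 counts in the protoplast libraries, and were at least 7.93-fold and 15.2-fold higher against a floor of 3 counts per library. MYB24, the remaining gene of that list, has no row and was not analysed here. These lists moved in libraries in which the epidermis, guard cell, phloem and xylem markers fell, and the part of those cells was not tested.

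**Figure D4:**
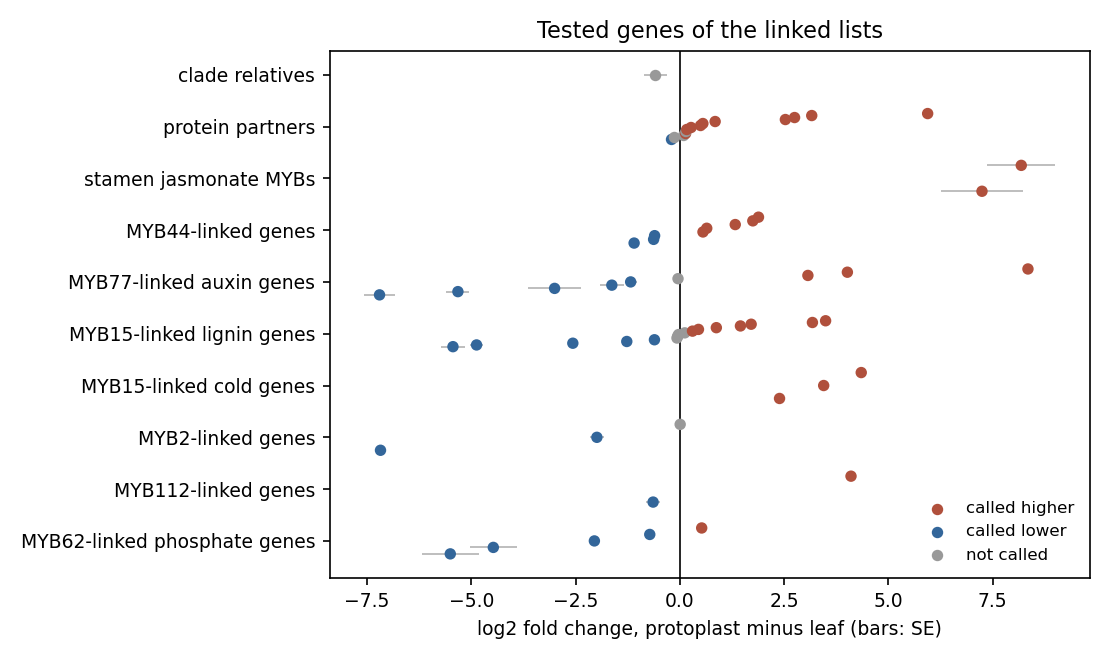
Log2 fold changes, protoplast minus leaf, with SE (x axis) of the tested genes on each list tied to a member (y axis), coloured by the call of the test. The 3 cold regulators and 10 of 14 partners are called higher with TMM factors, the phosphatase, auxin and lignin lists hold calls on both sides, and values near 0, SQD2 and PYL8 among them, change sign with library size only. Of all genes tested, 39.8% are called higher and 40.7% lower with TMM factors.

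Genes with the most similar pattern were sought for MYB108, MYB44 and MYB15 among 6436 named genes with at least 5 CPM in one group. The measure was the distance of mean-centred log2 CPM over the 4 libraries, with a prior count of 2 added. For MYB108, with 1 and 2 leaf counts, the leaf values and so the distances rest in large part on that added count. Nearest to MYB108 were the kinase gene MAPKKK21 (distance 0.70), ABR1, an ethylene response factor (0.75), and PMZ (0.99). MAPKKK21 had 9 and 10 leaf counts and 29267 and 26479 protoplast counts, so that even the nearest gene was less empty in leaf than MYB108. For MYB44 the nearest were CRK15, Hop2 and MC4 at 0.03, 0.03 and 0.04, and for MYB15 they were TPR3, UGT73B5 and ATMDAR2 at 0.08, 0.11 and 0.14. With 2 libraries a group, such distances mostly restate the difference between the groups.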

How the data were processed

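The deposited counts are whole-number reads per gene locus without normalization, per the file headers and values, from 2 leaf and 2 protoplast libraries. Per the submitters' processing notes STAR and DESeq were used. Their versions and roles, the counter, strand setting, genome build and annotation are details not given in the sources used here. Per the file headers, the authors' comparison table holds a log2 fold change and its SE. Its fold changes are printed only where named.

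The members and lists were chosen with earlier results of these data known. Counts were tested with edgeR 4.0.16 in R 4.3.3 (quasi-likelihood F test, group only, TMM factors, filterByExpr), which left 20200 of 24904 genes, with Benjamini-Hochberg adjustment over these and a threshold of 0.05; an SE was taken as log2 fold change over root F. Total counts of 39958035 to 48503141 set the precision; replicate pairs differed by more than sampling noise (chi-square per degree of freedom 4.72 for leaf, 8.94 for protoplasts). A floor of 3 counts per library stands for 0, and groups with 1 to 3 counts have exact 95% intervals; both cover counting error only, as reads are not independent molecules. MYB-numbered genes are loci whose RefSeq symbol or synonym is MYB and a number. From each list were named the called genes at both ends, or all genes of lists of 3 or fewer; of the MYB-numbered genes with at least 5 CPM in one group, the 5 called at each end.

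Sequences were read by locus tag from RefSeq TAIR10.1; counts carry no coordinates. Coding sequences were aligned globally with Biopython 1.88 (match 2, mismatch -1, gap opening -10, extension -0.5). The planned protein comparison was replaced by these, and the planned protein motif search was not done. Alternatives were DESeq2 1.42.0, other scalings, no filter, a replicate block and leaving out each library.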

Additional observations from a re-analysis of the deposited data

How the results depend on the processing

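With library size only, 4326 genes rose and 14057 fell, against 8036 and 8231 with TMM factors; calls were 49.4% higher with TMM, 35.9% under upper-quartile scaling and 23.5% by library size. In that setting 20 linked genes rose and 41 fell, and of the partners 4 and 9. Of the genes linked to MYB44 it was 3 and 5, and of the lignin genes 4 and 11. Upper-quartile factors gave 33, 6 and 9 lower for all linked genes, partners and lignin genes, beside 11047 of all 20200 genes tested. DESeq2 called 0 partners lower. With no filter 25 of the 95 other MYB-numbered genes with a row rose, against 9077 of all 24904 genes. The median member level per kilobase was 2.19 CPM in leaf, held by MYB112, and 85.5 CPM in protoplasts, held by MYB15. With library size only these medians were 2.89 and 64.6 CPM. Since a different gene holds each median, the pair gives no fold change of any member. Of 32 linked genes called higher, 10 turned negative by library size only, as did 6 of 7 mesophyll markers, and of 21 called lower 0 turned positive. Among the genes named in the text, reversals with library size only were MYB70 (-0.45), P5CS1 (-0.80), SQD2 (-0.28) and PYL8 (-0.71), and with upper-quartile factors P5CS1 (-0.32) and PYL8 (-0.24). The cause of these shifts was not tested. Leaving out each library in turn, with the lone library of a group assumed to vary like the other group, gave 7537 to 7957 genes higher and 7700 to 7928 lower, 15 to 18 other MYB-numbered genes higher and 34 to 35 lower, 29 to 33 linked genes higher and 21 to 23 lower, 8 to 10 partners higher and 0 to 2 lower, and in each case 7 of 8 members above 0; without leaf replicate 1 or 2 the fitted log2 fold change of MYB108 was 13.48 or 14.33. A fit with the replicate number as a block called 7782 genes higher and 7868 lower. The deviations of same-numbered libraries had r = -0.08 across genes. With a single pair of libraries in each group, this cannot decide whether same-numbered libraries shared plants or days. Depth limits MYB62, MYB78, MYB14 and the leaf level of MYB108.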
